A study of Mus musculus with 12 samples.

Results

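The genes described here are 10 of the 17536 measured in mouse epiphyseal chondrocytes. They are the keratins Krt8, Krt18, Krt19, Krt17 and Krt10, the desmosome genes Dsp, Jup and Perp, and Sbsn and Calml3, which belong to neither family and are known from epithelia. They were chosen by name after several had been seen to be higher in deep zone (DZ) cells labelled R3-cKO than in R3-Cntl. The choice set them apart from Krt5 and Krt14, which were near the floor in all libraries. The measured values of the DZ genotype contrast therefore selected the genes, and in DZ cells they are given as a description with no test. All 10 symbols were found among the deposited values, each on 1 row.

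RNA was sequenced from superficial zone (SFZ) and DZ chondrocytes of C57BL/6 mice at 5 days of age, whose background the study's methods name as C57BL/6J. R3-Cntl mice were Runx3 fl/fl, and R3-cKO mice were Col2a1-Cre; Runx3 fl/fl, so that Cre was driven by Col2a1, a gene of chondrocytes. Each genotype gave 3 libraries per zone, numbered 1 to 3, which makes 12 libraries in 4 groups. The study's supplement gives 3 individual mice of each genotype and calls them littermates, without saying which numbers share an animal or a litter. The SFZ cells came off the ends of the femur and tibia with trypsin and collagenase, and the DZ cells came out of the remaining epiphyseal cartilage with more collagenase, so the zones also differ in digestion. By the study's methods the freed cells were plated on fibronectin and grown in monolayer culture, so the values are those of cultured cells.

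Keratins form the intermediate filaments of epithelial cells, and each filament needs a type I keratin and a type II keratin. Krt8 is the type II partner of Krt18 and Krt19 in simple epithelia, whereas Krt5 and Krt14 are the partners of basal epidermis. Desmosomes anchor these filaments at cell contacts through desmosomal cadherins, the plaque proteins plakoglobin (Jup) and plakophilins, and desmoplakin (Dsp), which binds the filament. Chondrocytes are mesenchymal cells whose main cytoplasmic filament protein is vimentin.

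Runx3, the targeted gene, was not lower as a group where the label was R3-cKO. In SFZ cells its FPKM (fragments counted on a gene, scaled for its length and for the depth of the library, which is the unit inferred for the deposited values) was 10.73, 5.98 and 6.65 in R3-Cntl, against 11.83, 9.07 and 3.42 in the R3-cKO-labelled SFZ libraries. In DZ cells it was 12.67, 12.65 and 7.66 in R3-Cntl, against 15.95, 12.66 and 8.14 in the R3-cKO-labelled DZ libraries. The value is for the whole gene, and reads over the deleted part were not analysed here, so the directions below are between libraries as labelled. The Y-linked gene Ddx3y, chosen after its values were seen, lay between 4.96 and 21.09 FPKM in the 6 R3-Cntl libraries. It was at 0.02 and 0.01 FPKM in libraries 2 and 3 labelled R3-cKO SFZ and at 0 in those labelled R3-cKO DZ 2 and 3. Ddx3y was thus unevenly spread between the genotype labels in both zones. Its part in the genotype contrasts cannot be fully told apart from the label and was not tested.

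Several of the genes lie close together in the genome. On mm9, the build of the deposited values, Krt8 lies at chr15:101827142-101834773 on the minus strand and Krt18 at chr15:101858647-101862457 on the plus strand. The starts of these partner genes lie head to head, 23.9 kb apart. Krt19 (chr11:100002124-100009979), Krt17 (chr11:100117531-100122343) and Jup (chr11:100230272-100259077) lie on the minus strand of chromosome 11. There are 107.6 kb between Krt19 and Krt17, a stretch that holds Krt14 (chr11:100064476-100068862), and 107.9 kb between Krt17 and Jup. Krt10 (chr11:99246568-99250678, minus strand) lies 751.4 kb from Krt19, on the side away from Krt17. The other genes are apart, with Dsp at chr13:38243197-38290446 on the plus strand, Calml3 at chr13:3802139-3803564 on the minus strand, Perp at chr10:18564877-18576879 on the plus strand and Sbsn at chr7:31536490-31541152 on the plus strand.

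Because the deleted gene encodes a DNA-binding factor, and because Krt8 and Krt18 are neighbours that differed in level, the 250 bases before the start of 4 genes are shown. They are from a table of RefSeq promoters on GRCm38.p6, in which 6 of the 10 genes had an entry, and are written 5′ to 3′ on the strand of the gene. Capitals mark, on either strand, the letters TGTGGT known from Runx factors, their form with a changed end TGTGGC, their form with a changed middle TGCGGT, or the form with both changes TGCGGC. They also mark the AP-1 letters TGANTCA and the TATA box letters TATAAA. The windows are chr15:102004343-102004592 (minus) for Krt8, chr15:102027966-102028215 (plus) for Krt18, chr13:38151044-38151293 (plus) for Dsp and chr11:100397791-100398040 (minus) for Jup.
Krt8: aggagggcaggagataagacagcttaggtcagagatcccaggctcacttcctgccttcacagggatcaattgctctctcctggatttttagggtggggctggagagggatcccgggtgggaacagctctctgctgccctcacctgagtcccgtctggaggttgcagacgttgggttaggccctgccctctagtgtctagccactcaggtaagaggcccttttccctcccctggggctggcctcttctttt
Krt18: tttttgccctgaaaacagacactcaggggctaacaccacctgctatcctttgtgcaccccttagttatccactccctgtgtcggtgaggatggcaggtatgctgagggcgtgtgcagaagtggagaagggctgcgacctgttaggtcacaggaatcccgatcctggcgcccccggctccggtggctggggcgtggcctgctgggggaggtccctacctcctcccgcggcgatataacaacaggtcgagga
Dsp: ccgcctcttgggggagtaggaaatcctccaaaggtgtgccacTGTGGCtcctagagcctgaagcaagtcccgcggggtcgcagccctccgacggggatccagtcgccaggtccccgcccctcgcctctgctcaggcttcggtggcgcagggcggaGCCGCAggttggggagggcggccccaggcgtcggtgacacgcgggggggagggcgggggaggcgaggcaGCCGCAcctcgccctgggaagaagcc
Jup: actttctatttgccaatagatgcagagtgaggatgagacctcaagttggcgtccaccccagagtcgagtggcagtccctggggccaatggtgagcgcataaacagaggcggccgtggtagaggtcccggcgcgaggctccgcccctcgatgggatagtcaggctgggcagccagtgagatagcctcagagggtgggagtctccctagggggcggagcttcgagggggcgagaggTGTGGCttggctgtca
The Runx letters stood 3 times in the Dsp window and 1 time in the Jup window, and in none of the other 4 windows read. They stood in 12467 of 32851 mouse windows of this length, which is 38%. TGANTCA stood in the Sbsn window and in 6.75% of all windows, and TATAAA in the Krt10 window and in 12.4% of all windows. These are matches of letters only. The Krt8 window had 58% G and C, the Krt18 window 60.4%, the Jup window 62% and the Dsp window 72.4%.

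Levels differed widely among the 10 genes. Perp, Sbsn, Jup and Calml3 were at 1 FPKM or more in all 12 libraries, Krt19, Krt17, Krt18, Krt10 and Dsp reached 1 FPKM in some, and Krt8 never did. In the order of the 4 group means of each gene, 30 pairs of neighbours can be compared, and the ranges overlapped in all but 1 of them, the step from the libraries labelled R3-cKO DZ down to those labelled R3-cKO SFZ for Dsp. Depth was estimated from the regular steps between low values of short genes, which put 1 fragment on 1 kb at 0.0333 to 0.0385 FPKM, or 26.0 to 30.1 M fragments per library. The steps were not sharp (mean cosine 0.464 to 0.605, where 1 is an exact fit), so the fragment numbers below are estimates.

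Krt8, the type II keratin of simple epithelia, was near the floor. It was 0.49, 0.12 and 0.02 FPKM in R3-Cntl DZ and 0.42, 0.14 and 0.06 FPKM in the R3-cKO-labelled DZ libraries. Its SFZ values were 0.11, 0 and 0.04 FPKM in R3-Cntl, against 0.10, 0.16 and 0.02 FPKM in the R3-cKO-labelled SFZ libraries. The highest of these values rests on about 25 fragments, and the DZ groups overlapped fully.

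Krt18, its type I partner, was 0.56, 0.87 and 0.13 FPKM in R3-Cntl DZ and 3.16, 2.62 and 0.42 FPKM in the R3-cKO-labelled DZ libraries. Libraries 1 and 2 of that group stood above all R3-Cntl libraries, and library 3 lay within their range. The SFZ values were 0.45, 0.39 and 1.09 FPKM in R3-Cntl, against 0.51, 1.28 and 0.21 FPKM in the R3-cKO-labelled SFZ libraries. The group means were 0.520 ± 0.372 (SD, n = 3) and 2.07 ± 1.45 FPKM (SD, n = 3) in DZ cells. In bulk RNA, more cells that express a gene and more RNA per cell cannot be told apart.

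Krt19, a type I keratin of simple and ductal epithelia, reached the highest level of any keratin. It was 0.36, 4.03 and 1.39 FPKM in R3-Cntl DZ and 6.91, 18.16 and 3.54 FPKM in the R3-cKO-labelled DZ libraries. The lowest value labelled R3-cKO lay below R3-Cntl DZ 2, so the groups overlapped by that library. In SFZ cells it was 0.22, 1.50 and 6.10 FPKM in R3-Cntl, against 0.75, 12.04 and 0.52 FPKM in the R3-cKO-labelled SFZ libraries. SFZ libraries of the same genotype thus differed widely, and the high ones were R3-Cntl SFZ 3 and that labelled R3-cKO SFZ 2.

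Krt17, a type I keratin of skin appendages and wounded epithelium, had the same high libraries. It was 1.03, 2.25 and 0.36 FPKM in R3-Cntl DZ and 6.60, 10.46 and 0.37 FPKM in the R3-cKO-labelled DZ libraries. Libraries 1 and 2 stood above all R3-Cntl libraries, and library 3 was at the level of the lowest of them. Among SFZ libraries it was 0.64, 0.38 and 2.80 FPKM in R3-Cntl, against 0.67, 5.81 and 0.11 FPKM in the R3-cKO-labelled SFZ libraries.

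Krt10, the type I keratin of differentiating epidermis, was nearly flat. It was 0.92, 0.86 and 0.97 FPKM in R3-Cntl DZ and 1.08, 1.12 and 1.10 FPKM in the R3-cKO-labelled DZ libraries. The groups did not overlap, but the difference of the means was small, at 0.917 ± 0.0551 against 1.10 ± 0.0200 FPKM (SD, n = 3 each). Over all 12 libraries Krt10 stayed between 0.86 and 1.30 FPKM, or about 49 to 74 fragments. After quantile normalization the DZ groups overlapped.

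**Figure D1:**
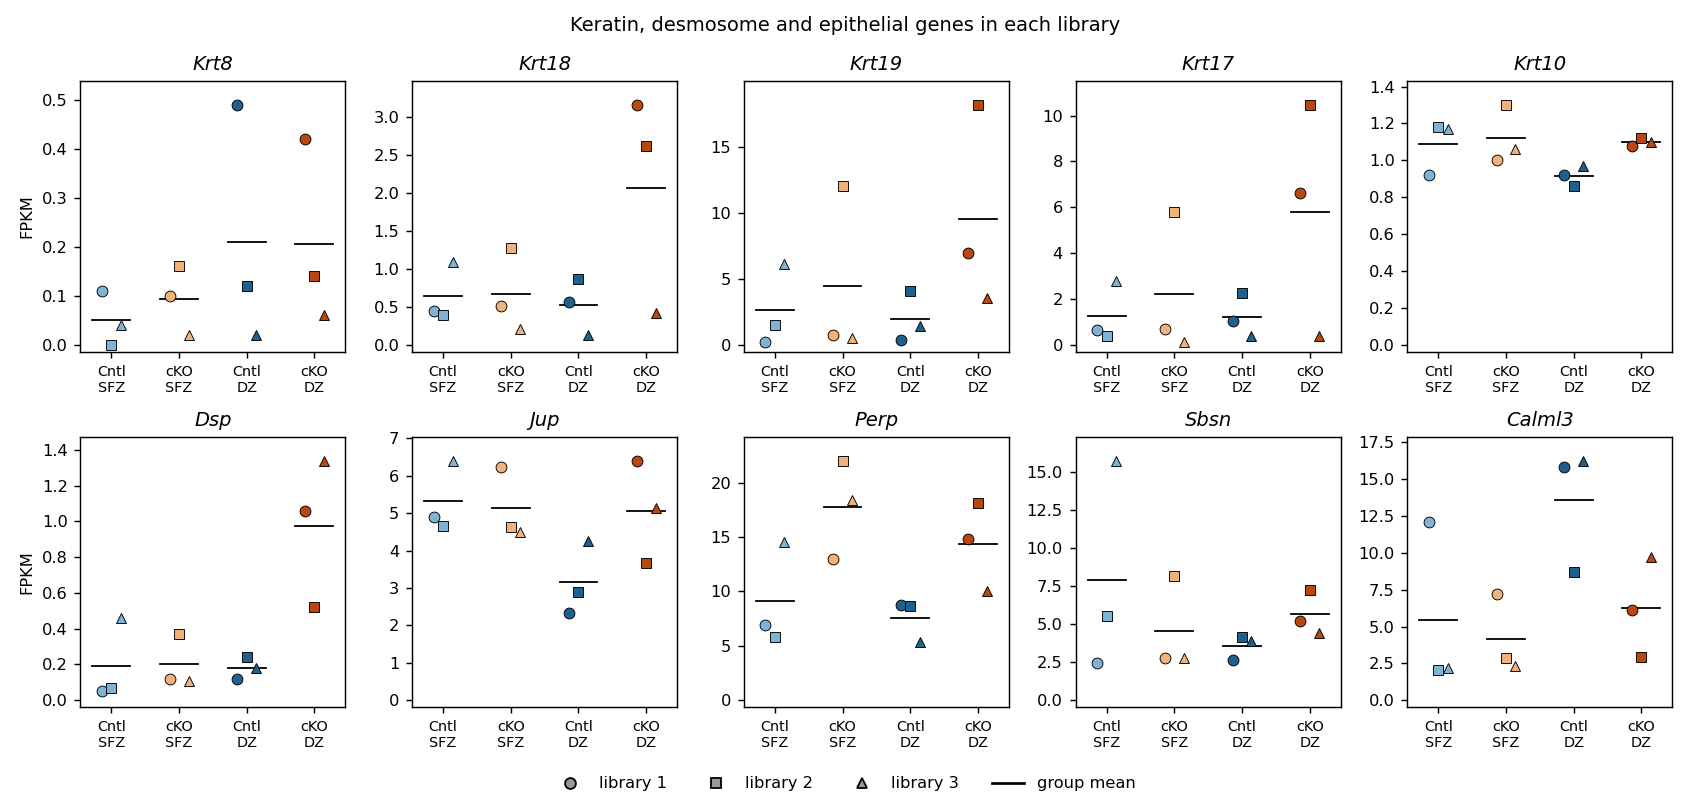
FPKM of each of the 10 genes in the 12 libraries, by group, with circles, squares and triangles for libraries 1, 2 and 3 and a bar at the group mean. Krt17 and Krt18 were highest in libraries 1 and 2 labelled R3-cKO DZ, Krt19 was highest in library 2 of that group, Krt10 stayed between 0.86 and 1.30 FPKM, and Calml3 was highest in R3-Cntl DZ.

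All keratins were then summed by type to place these genes in their family. The 20 type I keratins measured summed to 3.18, 8.75 and 3.18 FPKM in R3-Cntl DZ and to 18.42, 33.84 and 5.91 FPKM in the R3-cKO-labelled DZ libraries. The 23 type II keratins summed to 9.09, 12.85 and 3.07 FPKM in R3-Cntl DZ and to 7.11, 17.64 and 6.28 FPKM in the R3-cKO-labelled DZ libraries. Type I was thus above type II in libraries 1 and 2 labelled R3-cKO DZ, and below it in R3-Cntl DZ 1 and 2. In library 3 the order was the other way round in each genotype, by small margins. In SFZ cells type I ranged from 2.21 FPKM in the library labelled R3-cKO SFZ 3 to 21.43 FPKM in that labelled R3-cKO SFZ 2. Type II ranged from 1.03 to 8.04 FPKM in the same libraries.

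In DZ cells the most abundant type II keratin was Krt7, a simple keratin outside the 10 genes. It was 4.45, 8.28 and 1.61 FPKM in R3-Cntl DZ and 2.25, 11.83 and 3.49 FPKM in the R3-cKO-labelled DZ libraries, and the groups overlapped. Krt7 held 49.0, 64.4 and 52.4% of the type II sum in R3-Cntl DZ, while Krt8 held 5.39, 0.934 and 0.651%. Krt87, another type II keratin, was 2.95, 1.81 and 0.59 FPKM in R3-Cntl DZ and 1.94, 1.85 and 1.12 FPKM in the R3-cKO-labelled DZ libraries. In SFZ cells Krt87 lay between 0.15 and 1.47 FPKM. Krt80, also of type II, was 0.20, 1.44 and 0.37 FPKM in R3-Cntl DZ and 1.58, 2.53 and 0.59 FPKM in the R3-cKO-labelled DZ libraries. In SFZ cells Krt80 was above Krt7 in 5 of the 6 libraries. The SFZ values of R3-Cntl were 1.07, 1.65 and 2.76 FPKM for Krt80, against 1.0, 0.64 and 2.31 FPKM for Krt7. Where labelled R3-cKO they were 2.68, 2.77 and 0.23 FPKM for Krt80, against 0.86, 2.80 and 0.12 FPKM for Krt7. Krt20 and Krt23, the remaining simple keratins listed, never exceeded 0.02 FPKM.

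The keratins of stratified epithelium were low apart from Krt17, which reached 10.46 FPKM, and Krt10 did not exceed 1.30 FPKM. Krt5 stayed between 0 and 0.10 FPKM and Krt14 between 0 and 0.13 FPKM over the 12 libraries. Krt1 did not exceed 0.14 FPKM, Krt15 did not exceed 0.21 FPKM and Krt75 did not exceed 0.65 FPKM. Krt16 reached 1.32 FPKM in the library labelled R3-cKO DZ 2, and Krt79 reached 1.31 FPKM in R3-Cntl SFZ 1. Krt13 did not exceed 0.11 FPKM, Krt77 did not exceed 0.08 FPKM, and Krt2, Krt4 and Krt6a did not exceed 0.02 FPKM. Krt6b was not among the genes analysed here.

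**Figure D2:**
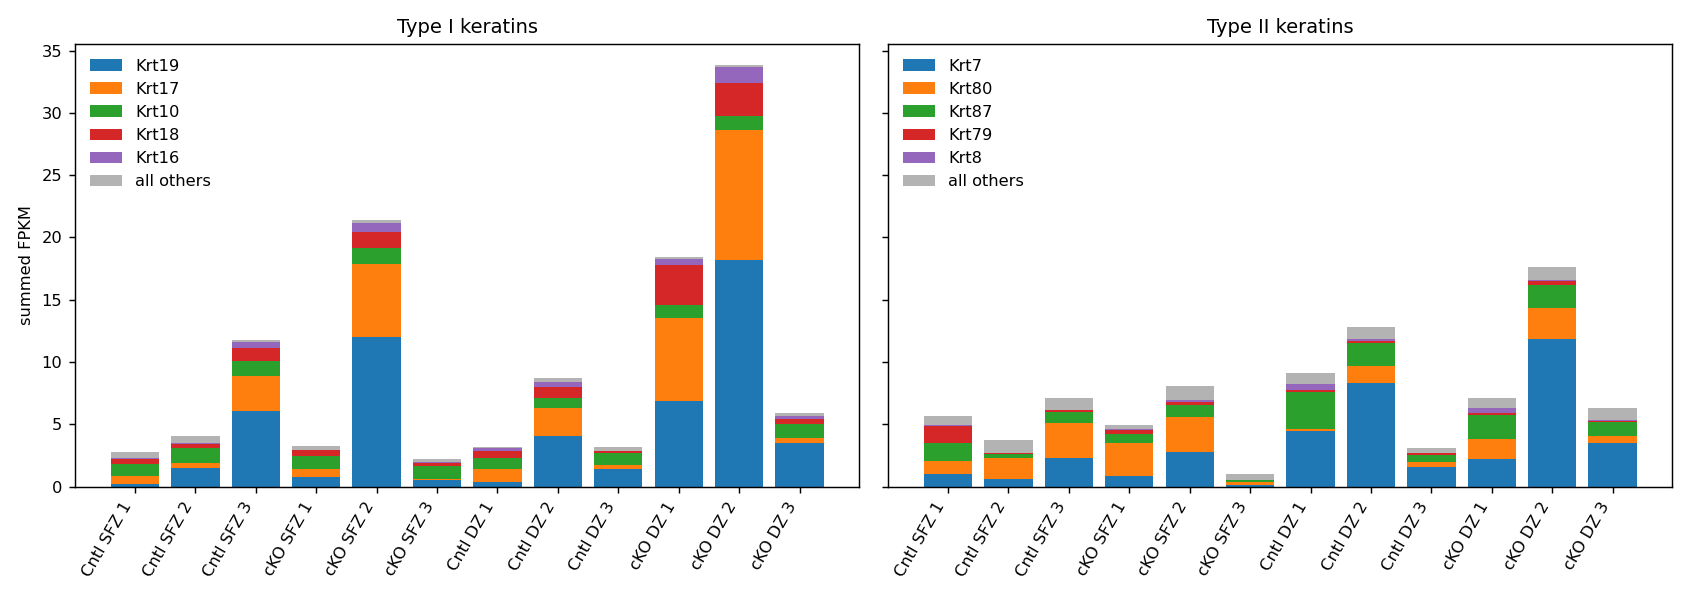
Summed FPKM of all type I keratins (left) and all type II keratins (right) in each library, stacked by gene. The tallest type I bar, 33.84 FPKM, is the library labelled R3-cKO DZ 2 and is mostly Krt19 and Krt17, and Krt7 is the largest type II share there.

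Desmoplakin, the plaque protein that binds keratin filaments, was low but separated in DZ cells. Dsp was 0.12, 0.24 and 0.18 FPKM in R3-Cntl DZ and 1.06, 0.52 and 1.34 FPKM in the R3-cKO-labelled DZ libraries. The groups did not overlap, and the highest value was in library 3, which was the lowest of its group for Krt17, Krt18 and Krt19. In SFZ cells Dsp was 0.05, 0.07 and 0.46 FPKM in R3-Cntl, against 0.12, 0.37 and 0.11 FPKM in the R3-cKO-labelled SFZ libraries. Its long transcript of 9538 bases puts the DZ values at an estimated 32 to 350 fragments.

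Plakoglobin, which serves desmosomes and adherens junctions, overlapped between genotypes in both zones. Jup was 2.34, 2.89 and 4.27 FPKM in R3-Cntl DZ and 6.41, 3.68 and 5.13 FPKM in the R3-cKO-labelled DZ libraries. The second of these fell below R3-Cntl DZ 3, so the groups overlapped. In SFZ cells Jup was 4.91, 4.66 and 6.39 FPKM in R3-Cntl, against 6.25, 4.64 and 4.51 FPKM in the R3-cKO-labelled SFZ libraries.

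Perp, a membrane protein of desmosomes that p53 induces, had the highest group mean of the 10 genes in SFZ cells and in the R3-cKO-labelled DZ libraries. It was 8.75, 8.69 and 5.35 FPKM in R3-Cntl DZ and 14.83, 18.08 and 10.04 FPKM in the R3-cKO-labelled DZ libraries, with no overlap. In SFZ cells it was 6.94, 5.81 and 14.54 FPKM in R3-Cntl, against 12.99, 22.02 and 18.37 FPKM in the R3-cKO-labelled SFZ libraries. There only R3-Cntl SFZ 3 stood above the lowest library labelled R3-cKO.

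The other desmosome genes showed which components were present at all. Among the desmosomal cadherins, Dsg2 was 0.79, 0.82 and 1.0 FPKM in R3-Cntl DZ and 0.67, 0.76 and 0.53 FPKM in the R3-cKO-labelled DZ libraries. All its R3-cKO-labelled DZ values thus lay below all R3-Cntl values, the other way from Dsp. Dsc2 was 0.26, 0.51 and 0.83 FPKM in R3-Cntl DZ and 1.16, 0.62 and 1.22 FPKM in the R3-cKO-labelled DZ libraries, with overlap. The epidermal cadherins Dsg1a, Dsg1b, Dsg1c, Dsg3, Dsc1 and Dsc3 never exceeded 0.07 FPKM. The plakophilin Pkp2 was 0.61, 1.08 and 0.62 FPKM in R3-Cntl DZ and 3.20, 3.77 and 0.79 FPKM in the R3-cKO-labelled DZ libraries. Its relative Pkp1 was 0.24, 1.79 and 0.44 FPKM in R3-Cntl DZ and 1.84, 4.51 and 0.68 FPKM in the R3-cKO-labelled DZ libraries. Both were highest in the libraries that were high for Krt17 and Krt19, and both overlapped between genotypes. Pkp4, which also occurs at adherens junctions, was the most abundant plakophilin at 4.08 to 13.68 FPKM. Pkp3 did not exceed 0.13 FPKM, Evpl did not exceed 0.45 FPKM and Ppl did not exceed 0.36 FPKM.

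**Figure D3:**
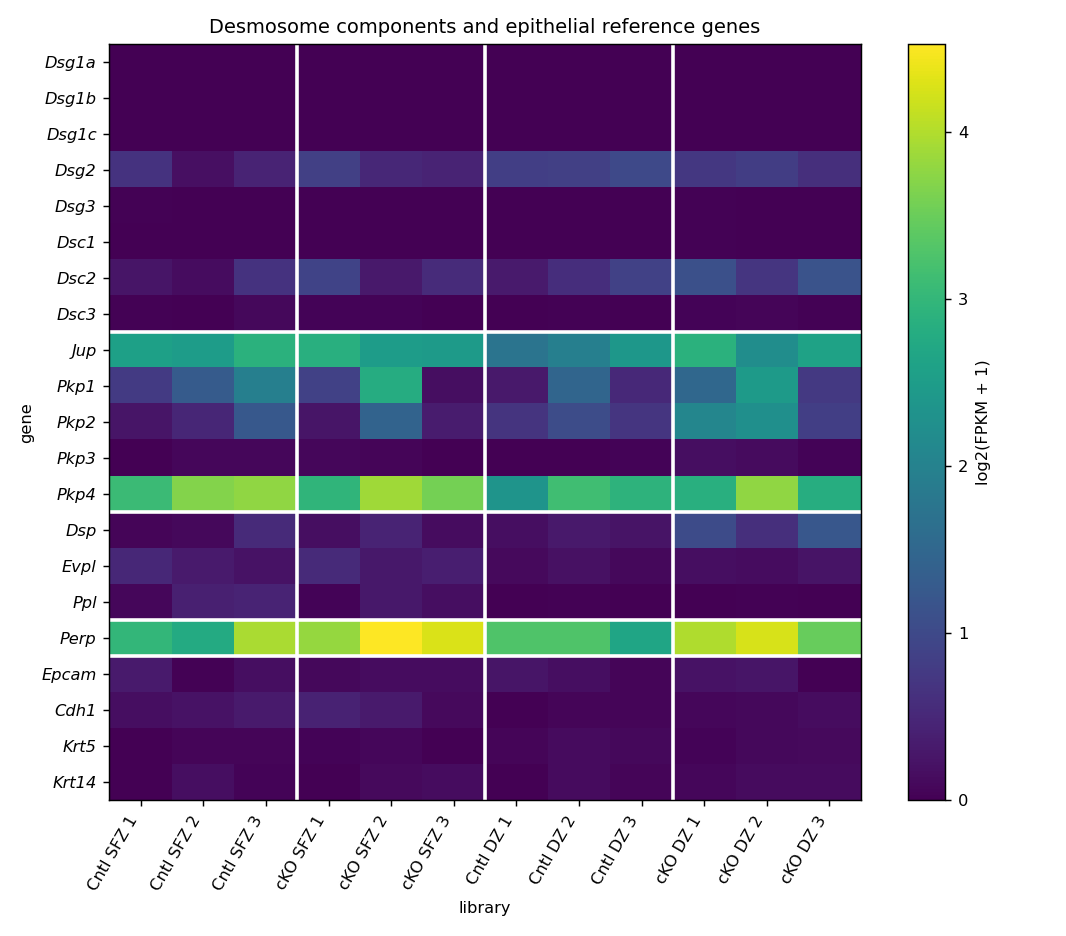
Desmosome genes by library as log2(FPKM + 1), with lines between cadherins, armadillo proteins, plakins, Perp and 4 epithelial reference genes. Jup, Pkp4 and Perp were present in every library, whereas Dsg1, Dsg3, Dsc1, Dsc3, Krt5 and Krt14 were dark throughout.

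Sbsn, a secreted protein of differentiating epidermis, was 2.61, 4.12 and 3.90 FPKM in R3-Cntl DZ and 5.22, 7.26 and 4.44 FPKM in the R3-cKO-labelled DZ libraries. The DZ groups did not overlap. Its SFZ values were 2.45, 5.55 and 15.72 FPKM in R3-Cntl, against 2.75, 8.14 and 2.74 FPKM in the R3-cKO-labelled SFZ libraries. The highest Sbsn value of all was thus in R3-Cntl SFZ 3.

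Calml3, a calmodulin-like protein known from epithelial cells, went the other way from Krt17, Krt18 and Krt19. It was 15.79, 8.70 and 16.26 FPKM in R3-Cntl DZ and 6.09, 2.96 and 9.72 FPKM in the R3-cKO-labelled DZ libraries. Library 3 of the R3-cKO-labelled group stood above R3-Cntl DZ 2, so the groups overlapped. Calml3 was also high in R3-Cntl SFZ 1, at 12.06 FPKM against 2.03 and 2.22 FPKM in libraries 2 and 3. The libraries labelled R3-cKO SFZ were at 7.22, 2.84 and 2.35 FPKM. The 14 chondrocyte genes measured (most abundant Col2a1) summed to 40586, 25577 and 33375 FPKM in R3-Cntl DZ and to 26508, 17571 and 32673 FPKM in the R3-cKO-labelled DZ libraries. In R3-Cntl SFZ they summed to 17759, 5761 and 10761 FPKM, and in the R3-cKO-labelled SFZ libraries to 15307, 8794 and 6832 FPKM. In the DZ groups Calml3 and the chondrocyte sum were lowest in library 2 of each genotype.

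**Figure D4:**
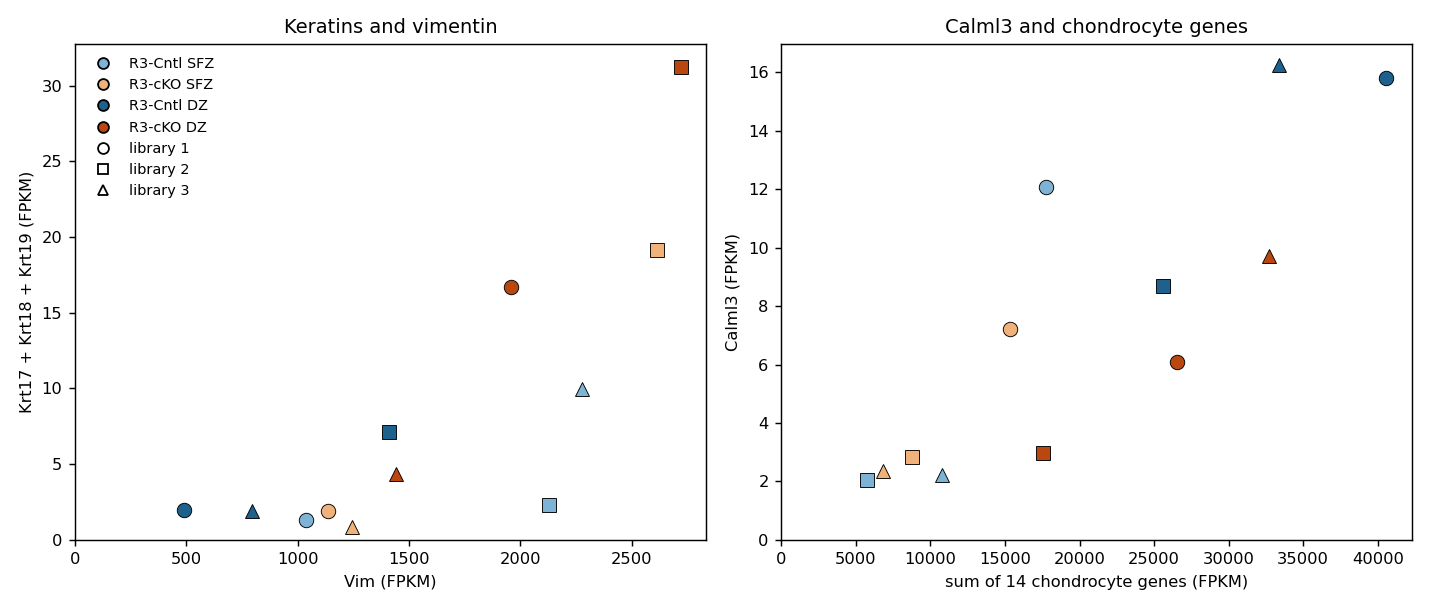
Left, the sum of Krt17, Krt18 and Krt19 against vimentin in each library, both in FPKM. Right, Calml3 against the sum of 14 chondrocyte genes, both in FPKM. The library labelled R3-cKO DZ 2 was highest on both axes on the left, and R3-Cntl DZ 1 and 3 stood highest for Calml3 on the right.

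Within DZ cells the same-numbered libraries of the genotypes moved together, so ratios were also taken within a number. The ratio of the library labelled R3-cKO to R3-Cntl for Krt19 was 19.2, 4.51 and 2.55 for numbers 1, 2 and 3. For Krt18 it was 5.64, 3.01 and 3.23. For Dsp it was 8.83, 2.17 and 7.44. These genes were higher in the library labelled R3-cKO at every number. Some ratios rest on few fragments, with an estimated 16 against 5 for Krt18 at number 3 and 283 against 16 for Krt19 at number 1. Krt17 had ratios of 6.41, 4.65 and 1.03, the last of them from 0.37 against 0.36 FPKM. Perp had ratios of 1.69, 2.08 and 1.88. Calml3 was lower at every number, with ratios of 0.386, 0.34 and 0.598. Krt8 had ratios of 0.857, 1.17 and 3.0, the last of them from values of 0.02 and 0.06 FPKM.

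**Figure D5:**
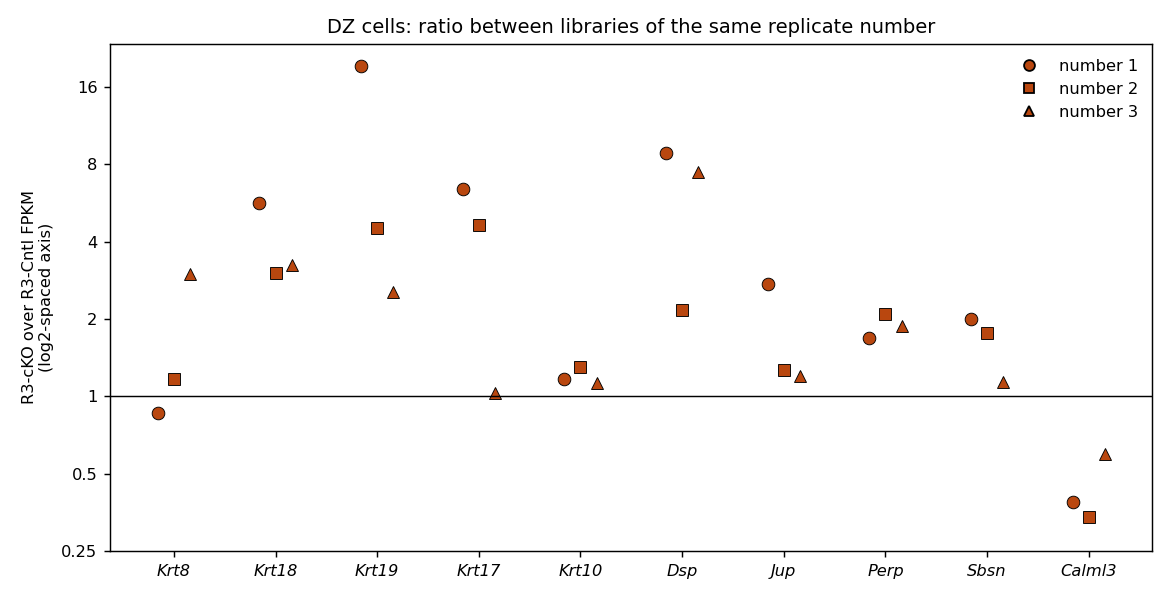
FPKM of the library labelled R3-cKO over that of R3-Cntl with the same number in DZ cells, on a log2-spaced axis with a line at 1. Krt18, Krt19, Dsp and Perp lay at 1.69 or higher at every number, and Calml3 at 0.598 or lower.

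Counted over the 10 genes, 4 had all 3 DZ values labelled R3-cKO above all R3-Cntl values (Krt10, Dsp, Perp and Sbsn), and 8 were higher at every number. Of the 11091 genes that passed the filter in DZ cells (3 or more of the 6 libraries at 1 FPKM or higher), 5.26% stood above in this way and 26.6% were higher at every number. Calml3 was the 1 gene of the 10 that was lower at every number, as were 13.4% of all genes. Since this contrast chose the genes, nothing is read from these counts. The filter was passed by 7 of the 10 genes, not by Krt8, Krt18 and Dsp, and Krt10 passed only through the libraries labelled R3-cKO. Over all genes limma called 0 of 11091 (0%) at an adjusted p under 0.05, with 404 at an unadjusted p under 0.05. With replicate numbers blocked, these counts were 0 and 1830. The unadjusted count was 211 without the library labelled R3-cKO DZ 2, 222 without R3-Cntl DZ 1, 239 without that labelled R3-cKO DZ 1 and 773 without that labelled R3-cKO DZ 3. On the log2(FPKM + 1) scale, where changes of low genes come out too small, the largest log2 fold change among the 7 was 1.80 (SE 0.64) for Krt19.

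The SFZ genotype contrast used libraries that had not chosen the genes, and there none of them separated. Over the 10 genes, 0 had all SFZ values labelled R3-cKO above R3-Cntl and 0 had all below, against 1.45% and 0.953% of the 11537 genes that passed the filter. Perp was the 1 gene higher at every number, with ratios of 1.87, 3.79 and 1.26, as were 6.15% of all genes. At every number 0 of the 10 were lower, against 6.01%, although SFZ numbers 2 and 3 do not pair. The filter was passed by 6 of the 10 genes, not by Krt8, Krt18, Krt17 and Dsp. limma called 0 of these 6 at an adjusted p under 0.05 and 0 of 11537 genes (0%), with 34 genes at an unadjusted p under 0.05. That last count was 1204 without the library labelled R3-cKO SFZ 2, 101 without R3-Cntl SFZ 1 and 12 without that labelled R3-cKO SFZ 3. Perp had the largest difference, with a log2 fold change of 0.96 (SE 0.35), a limma unadjusted p of 0.0322 and an adjusted p of 1. In its exact two-sided permutation test p was 0.2, where 0.1 is the smallest p that 3 against 3 libraries allow. The log2 fold change of Krt19 was 0.23 (SE 1.01), and its exact permutation p was 0.8. Sbsn had a log2 fold change of -0.52 (SE 0.64) and an exact permutation p of 0.7. For Jup it was -0.04 (SE 0.17), for Krt10 0.02 (SE 0.15) and for Calml3 -0.09 (SE 0.65), with exact permutation p-values of 0.5, 0.9 and 1. Krt8, Krt18, Krt17 and Dsp had exact permutation p-values of 0.5, 1, 0.8 and 0.9. Krt19 was at -0.77 without the library labelled R3-cKO SFZ 2, in a fit with no filter, since it then failed the filter. Without R3-Cntl SFZ 1 the values were -0.37 for Krt19, -0.04 for Krt10 and 0.60 for Calml3, and without R3-Cntl SFZ 3 they were 0.08 for Sbsn and 0.07 for Jup. Whether the genotype effect differed by zone was not tested.

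Other genes that p53 induces, as it does Perp, were compared in the same SFZ fit. Of 15 p53 target genes measured, 15 had a log2 fold change above 0, with a median of 0.19, beside 5480 of 11537 genes and a median of -0.01 over all. None of the 15 had an adjusted p under 0.05, and 1 had an unadjusted p under 0.05. Cdkn1a, the cell cycle inhibitor and most abundant of them, was 132.13, 93.96 and 161.13 FPKM in R3-Cntl SFZ and 162.69, 183.70 and 149.53 FPKM in the R3-cKO-labelled SFZ libraries. In DZ cells 8 of the 15 were above 0, with a median of 0.03, beside 6910 of 11091 genes and a median of 0.05.

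Between zones of R3-Cntl mice the 10 genes are described without a test, since the R3-Cntl DZ libraries helped to choose them. Jup was the 1 gene whose DZ values all lay below its SFZ values, as did 26.5% of the 11336 genes that passed the filter, and 0 of the 10 lay above, against 5.96%. With median-of-ratios size factors or quantile normalization the zones overlapped for Jup too, an alternative chosen after seeing the data. The mean of Calml3 was 5.44 ± 5.74 FPKM in SFZ and 13.6 ± 4.24 FPKM in DZ cells (SD, n = 3 each), with overlap through R3-Cntl SFZ 1. Over all genes limma called 140 of 11336 (1.24%) at an adjusted p under 0.05, of which 17 were higher and 123 lower in DZ cells. The median log2 fold change of all genes was -0.17, and it was 0.00 with median-of-ratios size factors, which called 4 higher and 13 lower, or 23.5% higher against 12.1%. With quantile normalization 0 were higher and 4 lower. Without R3-Cntl SFZ 2, R3-Cntl DZ 1 or R3-Cntl DZ 2 the count was 0, and it was 3 without R3-Cntl SFZ 3 and 4 without R3-Cntl DZ 3. Without R3-Cntl SFZ 1 it was 505, of which 204 were higher and 301 lower, or 40.4% higher, so both the count and its split depend on single libraries.

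Among genes of the lists outside the 10, only Cdh13, an atypical cadherin, had an adjusted p under 0.05 between zones in the main fit. Its limma log2 fold change was -2.62 (SE 0.17), with an adjusted p of 0.021, and of 0.0186 with replicate numbers blocked. This call was lost without R3-Cntl SFZ 2, R3-Cntl DZ 1 or R3-Cntl DZ 2 and with no filter, where 0 genes were called. The values of Cdh13 were far apart between zones. They were 6.10, 7.58 and 5.20 FPKM in R3-Cntl SFZ and 0.05, 0.19 and 0.29 FPKM in R3-Cntl DZ. All 14 chondrocyte genes had a log2 fold change above 0 in DZ against SFZ cells, with a median of 1.62, and 0 had an adjusted p under 0.05, whereas 14 had an unadjusted p under 0.05. Over all 11336 genes, 3170 lay above 0 and 3102 had an unadjusted p under 0.05, of which 560 were above 0 and 2542 below. This split depends on the scaling, with 1332 above and 1330 below with median-of-ratios size factors and 1649 above and 1107 below with quantile normalization. The unadjusted count was 1502 without R3-Cntl SFZ 2 and 1938 without R3-Cntl DZ 1. The list values here were not recomputed with these scalings. Of the 9 plakin and filament genes tested, 8 were below 0 with a median of -1.04. The 2 desmosome genes tested outside the 10 had a median of -0.64. The simple keratin Krt7 had a log2 fold change of 1.20 (SE 0.49) and Krt80 one of -0.79 (SE 0.34), in opposite directions. None of these had an adjusted p under 0.05 in this fit. With replicate numbers blocked, genes of the chondrocyte, plakin, desmosome and adherens junction lists passed as well, although zone numbers 2 and 3 do not pair. The limma adjusted p with the block was 0.0335 for Col2a1, 0.0324 for the plakin Plec and 0.0415 for Pkp4. It was 0.218 for Krt7 and 0.155 for Krt80.

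Defining genes of epithelial cells were checked, since the 10 genes are mostly known from epithelia. Of 22 epithelial junction and identity genes, 3 reached 1 FPKM in any library and 7 never reached 0.1 FPKM. The 3 were Spint2 (1.47 to 11.53 FPKM), Trp63 (0.29 to 5.29 FPKM) and Cdh3 (0.15 to 2.34 FPKM). Epcam did not exceed 0.25 FPKM and Cdh1 did not exceed 0.35 FPKM, 2 genes chosen after their values were seen. The list summed to 4.98, 7.26 and 17.40 FPKM in R3-Cntl DZ. The R3-cKO-labelled DZ libraries had sums of 7.96, 8.22 and 20.96 FPKM. Library 3 was highest in each group, and Spint2 and Trp63 made up most of its sum. Spint2 was at 9.70 FPKM and Trp63 at 5.05 FPKM in R3-Cntl DZ 3. The library labelled R3-cKO DZ 3 had 11.53 FPKM of Spint2 and 5.29 FPKM of Trp63. Krt17 and Krt18 were lowest in library 3 of each group, whereas Krt19 was lowest in R3-Cntl DZ 1. Dsp was highest in the library labelled R3-cKO DZ 3. In SFZ cells the list summed to 7.57, 7.67 and 10.14 FPKM for R3-Cntl. The sums of the R3-cKO-labelled SFZ libraries were 14.22, 7.57 and 14.63 FPKM.

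Of 16 late epidermal genes outside the 10, 0 reached 1 FPKM, and their sums lay between 0.55 and 2.26 FPKM with Sfn the most abundant. The basal epidermal adhesion list, whose most abundant genes Itga6 and Dst are also made by mesenchymal cells, summed to between 34.82 and 64.92 FPKM. Itga6, an integrin chain, was 22.29, 33.03 and 41.33 FPKM in R3-Cntl DZ and 21.79, 20.05 and 34.52 FPKM in the R3-cKO-labelled DZ libraries, lower at every number. Lamb3, a laminin chain, was 4.49, 8.92 and 3.72 FPKM in R3-Cntl DZ and 13.89, 11.01 and 4.73 FPKM in the R3-cKO-labelled DZ libraries, higher at every number. Dst was 14.33, 16.45 and 13.41 FPKM in R3-Cntl DZ and 19.43, 18.28 and 12.87 FPKM in the R3-cKO-labelled DZ libraries. Of 7 mesothelial genes outside the 10, only Krt7 and Msln reached 1 FPKM. Msln was 0.10, 1.16 and 1.60 FPKM in R3-Cntl DZ and 1.93, 4.34 and 4.46 FPKM in the R3-cKO-labelled DZ libraries, which did not overlap. The part of other cell types in the DZ values was not tested.

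Vimentin was high in the libraries with high keratins, and also in R3-Cntl SFZ 2, where Krt17, Krt18 and Krt19 summed to 2.27 FPKM. Vim was 488.35, 1411.87 and 792.83 FPKM in R3-Cntl DZ and 1957.28, 2722.88 and 1439.45 FPKM in the R3-cKO-labelled DZ libraries. The SFZ values were 1037.79, 2127.12 and 2276.03 FPKM in R3-Cntl, against 1138.05, 2614.55 and 1241.58 FPKM in the R3-cKO-labelled SFZ libraries. Krt17, Krt18 and Krt19 together came to 1.95, 7.15 and 1.88 FPKM in R3-Cntl DZ and to 16.67, 31.24 and 4.33 FPKM in the R3-cKO-labelled DZ libraries. The proliferation gene Mki67, chosen after its values were seen, was 5.44, 20.34 and 6.30 FPKM in R3-Cntl DZ and 14.12, 35.08 and 3.81 FPKM in the R3-cKO-labelled DZ libraries. In SFZ cells it was highest in R3-Cntl SFZ 3 at 50.50 FPKM and in the library labelled R3-cKO SFZ 2 at 40.19 FPKM, the libraries that were highest for Krt17, Krt18 and Krt19. Whether cell growth state has a part in the keratin values was not tested.

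Lamin A, from the same list, was 63.87, 89.54 and 62.88 FPKM in R3-Cntl DZ and 115.76, 154.71 and 80.83 FPKM in the R3-cKO-labelled DZ libraries. Plec, a plakin that links intermediate filaments to other structures, was 9.34, 15.45 and 10.54 FPKM in R3-Cntl DZ and 20.00, 22.25 and 11.75 FPKM in the R3-cKO-labelled DZ libraries. Among 9 plakin and filament genes tested in DZ cells outside the 10, 8 had a log2 fold change above 0 with a median of 0.39, beside 6910 of 11091 genes and a median of 0.05. limma called 0 of the 9 at an adjusted p under 0.05 and 2 at an unadjusted p under 0.05. Of 8 adherens junction genes, 6 were above 0 with a median of 0.27, and Ctnnb1, the most abundant, stayed between 207.78 and 251.40 FPKM in all 12 libraries. Of 14 chondrocyte genes, 13 were below 0 with a median of -0.62. In the SFZ genotype fit 1 of 9 plakin and filament genes was above 0 with a median of -0.16, beside -0.01 over all genes. There 2 of 9 adherens junction genes and 7 of 14 chondrocyte genes were above 0, with medians of -0.03 and 0.03.

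Markers of other cell types differed among the SFZ libraries. The 12 macrophage genes (most abundant Lyz2) summed to 186.56, 158.47 and 8.16 FPKM in R3-Cntl SFZ and to 156.88, 16.28 and 74.93 FPKM in the R3-cKO-labelled SFZ libraries. The SFZ libraries with the lowest sums were R3-Cntl SFZ 3 and that labelled R3-cKO SFZ 2, which had the highest Krt17, Krt18 and Krt19 values. In DZ cells the list came to 8.64, 7.83 and 25.55 FPKM in R3-Cntl and, where labelled R3-cKO, to 6.82, 5.54 and 4.01 FPKM. The genotypes did not overlap for this sum, which was lowest in the library labelled R3-cKO DZ 3. That library was the lowest of its group for Krt18 and Krt19 and the highest for Dsp. The 12 skeletal muscle genes (most abundant Acta1) summed to 206.48 FPKM in R3-Cntl SFZ 2 and to between 6.62 and 21.60 FPKM in the other 11 libraries. The 10 endothelial genes (most abundant Egfl7) summed to between 1.73 and 8.97 FPKM, and the 7 erythroid genes to between 0.08 and 0.25 FPKM. The part of these cells in the keratin values was not tested.

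The genes whose pattern was most like the mean of Krt8 and Krt18 over the 12 libraries were Anxa8, Galc, Dst, Crybg1 and Tnfrsf10b. Their Pearson correlations of log2(FPKM + 1) were 0.922, 0.916, 0.914, 0.910 and 0.908 (n = 12 libraries, which share zones, genotypes and numbers). Krt18 carries most of that mean, since Krt8 is so low. Anxa8, an annexin, was 57.31, 48.13 and 14.68 FPKM in R3-Cntl DZ and 114.29, 117.92 and 29.00 FPKM in the R3-cKO-labelled DZ libraries. Crybg1 was 4.19, 4.38 and 1.60 FPKM in R3-Cntl DZ and 5.80, 6.98 and 1.94 FPKM in the R3-cKO-labelled DZ libraries. By Spearman correlation Crybg1, Tnfrsf10b and Anxa8 stood at ranks 1, 5 and 11 of the 11345 genes compared, while Dst and Galc fell to ranks 278 and 491. By the Pearson measure Krt17 reached 0.908, Krt19 0.688, Perp 0.522, Dsp 0.505, Sbsn 0.377, Krt10 0.214, Jup 0.045 and Calml3 -0.17. The DZ libraries that chose the genes are among the 12, so nothing is read from this order.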

How the data were processed

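The authors sequenced 100-bp paired-end reads on a BGIseq-500 and mapped them to mm9, and the submitters' processing notes name Bowtie 0.12.2. The deposited values are taken as FPKM scaled between libraries by the authors. The unit was inferred from the values and is not written beside them. The study's methods describe linear models on log2 CPM after quantile normalization, its supplementary tables name a negative binomial model for these libraries, and the values used here are neither logged nor quantile normalized. All 12 columns were mapped, with 0 left over.

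FPKM values were analysed as log2(FPKM + 1) in R 4.3.3 with limma 3.58.1 (empirical Bayes, trend), over genes at 1 FPKM or higher in 3 or more of 6 libraries, with Benjamini-Hochberg adjustment over all of them, after a test on simulated data. Single genes in SFZ cells had exact two-sided permutation tests. Same-numbered libraries deviated together in DZ cells (correlations 0.65, 0.78 and 0.69 over 11345 genes), so their numbers were taken as pairs from the values, which the labels do not state. In SFZ cells numbers 2 and 3 did not (0.79, -0.1 and -0.42). There R3-Cntl 3 moved with R3-cKO 2 (0.69) and R3-Cntl 2 with R3-cKO 3 (0.45). The SFZ block followed the numbers and so did not match these pairs, and no fit used the exchanged pairs, which are known only from the values. The supplement names 3 individual littermate mice of each genotype, but neither it nor the labels say which numbers share an animal or litter, so p-values measure the spread between libraries. No pair of libraries held identical values.

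The 10 genes and all lists were chosen with earlier results of these data known. By the rule for naming, the text could name the 10 genes, every gene of the keratin and desmosome lists, from the other lists the 3 genes with the highest mean and any with an adjusted p under 0.05, Runx3, and the 5 genes outside the 10 most correlated with the mean of Krt8 and Krt18 among genes whose mean was 1 FPKM or higher. Of the adherens junction, p53, chondrocyte, macrophage, endothelium and muscle lists it names only the most abundant gene, and Cdh13 by its adjusted p, and of the erythroid list none. Epcam, Cdh1, Ddx3y, Mki67 and Krt87 fall outside the rule. The lists were simple keratins, stratified keratins, desmosome, epithelial junction and identity, late epidermis, basal epidermal adhesion, mesothelium, plakins and filaments, adherens junction, p53 targets, chondrocyte, macrophage, endothelium, muscle and erythroid. 1 further list is not reported here. Fragment numbers were estimated from steps between values below 0.25 FPKM times kb in genes of 600 to 1400 bases and the longest coding transcript of GENCODE vM1, which also gave the mm9 positions. Promoters are from RefSeq (GRCm38.p6). Alternatives changed the pseudocount, filter, scaling, block, model and libraries.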

Additional observations from a re-analysis of the deposited data

How the results depend on the processing

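The count of 4 genes with separated DZ values was 4 with median-of-ratios size factors and 3 with quantile normalization, which lost Krt10. In SFZ and DZ cells limma called 0 genes between genotypes at an adjusted p under 0.05 under every alternative run. The unadjusted SFZ count of 34 was 143 with no filter, 15 at a mean of at least 10 FPKM, 54 with quantile normalization, 51 with the block, and 12 (without the library labelled R3-cKO SFZ 3) to 1204 (without that labelled R3-cKO SFZ 2) leaving out a library. The unadjusted DZ count of 404 was 696 with no filter, 184 at a mean of at least 10 FPKM, 1830 with the block and 211 to 773 leaving out a library. The zone count of 140 was 88 with a pseudocount of 0.1, 29 with 5, 0 with no filter, 8 at a mean of at least 10 FPKM, 4 with quantile normalization, 17 with size factors, 798 with all 12 libraries in 1 model, and 0 to 505 leaving out a library. With the replicate number as a block it was 831, although zone numbers 2 and 3 do not pair (correlations 0.57, 0.11 and -0.15, against 0.38 for SFZ 2 with DZ 3 and 0.58 for SFZ 3 with DZ 2). The block by number changed no call between genotypes.

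Leaving out a library gave SFZ log2 fold changes of -0.49 to 0.60 for Calml3, -0.37 to 0.78 for Krt19 in the 3 of 6 fits where it passed the filter (-0.77 to 0.90 with the others fitted without a filter, added after seeing the data), -1.05 to 0.08 for Sbsn, -0.17 to 0.07 for Jup and -0.04 to 0.06 for Krt10. Perp kept its direction, at 0.73 to 1.32. A mean of at least 10 FPKM left most of the 10 genes without a value. By Spearman correlation Galc had 0.748 (rank 491), Dst 0.797 (rank 278) and Anxa8 0.923 (rank 11), so none of these was among the 5 most alike. Crybg1 (rank 1) and Tnfrsf10b (rank 5) were. The causes were not tested. Of the 10 genes Krt8 rests on the fewest fragments, an estimated 0 to 25 per library.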
